A study of Drosophila melanogaster with 9 samples.

Results

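The genes described here are the 6 copies of Hsp70 in Drosophila melanogaster (Hsp70Aa, Hsp70Ab, Hsp70Ba, Hsp70Bb, Hsp70Bbb and Hsp70Bc), their relative Hsp68, the Hsp90 gene Hsp83 and the J-domain gene DnaJ-1. They were chosen by name, as 9 of the 17759 genes in the table, and all 9 had enough counts to be tested. The Hsp70 copies are near-identical and share reads, so their sum was tested as well.

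RNA came from pools of 10 whole larvae, taken at the wandering stage of the third instar, when larvae leave the food. The larvae had grown on a sugar and yeast diet at 3 densities, given in the design text as 5 eggs per ml for low, 60 for medium and 300 for high, with 3 pools for each. Animals were allotted as counted first-instar larvae. The series asks which transcripts differ under larval overcrowding. The labels give no strain, sex or collection time, and do not say whether the pools of a density came from separate cultures, so the p-values measure the spread between these pools. Library totals ran from 16822606 counts (high replicate 2) to 25141308 (high replicate 3). Muscle, fat body and salivary gland markers were detected in each of the 9 libraries. High replicate 3 stood apart: its counts differed from those of the other high libraries with a chi-square per degree of freedom of 185.3 and 83.8, against 39.4 between those and 16.2 to 50.5 within the other densities.

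Hsp70 is an ATP-driven chaperone that binds exposed stretches of unfolded proteins. J-domain proteins such as DnaJ-1 deliver clients to it and trigger its ATP hydrolysis. Hsp90, made from Hsp83, acts later, on near-native clients such as kinases and receptors. In flies, heat shock factor (Hsf) drives these genes under heat and other protein-damaging stress. Without stress the Hsp70 copies are nearly silent, whereas Hsp83 is already abundant; the Hsc70 genes are the constitutive relatives of Hsp70.

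The 9 genes lie on chromosome arms 3R and 3L, in Release 6 (dm6) coordinates of the deposited table, and each is protein-coding. Hsp70Aa (3R, 11954163 to 11956544, minus strand) and Hsp70Ab (3R, 11958535 to 11960909, plus strand) form a diverging pair 1990 bases apart. Hsp70Ba (3R, 12465453 to 12467776, minus strand) lies 504543 bases further on. After another 34733 bases come Hsp70Bbb (12502510 to 12504856), Hsp70Bb (12505793 to 12508139) and Hsp70Bc (12509076 to 12511461), in tandem on the plus strand with gaps of 936 bases. The Hsp70 copies and Hsp68 (3R, 24055080 to 24057310, minus strand) are single-exon genes. By the Ensembl annotation of the same assembly, the A copies encode 642 residues, the B copies 641 and Hsp68 635. Hsp83 (3L, 3192969 to 3197059, plus strand) encodes 717 residues and has 1 intron of 1131 bases. DnaJ-1 (3L, 5750029 to 5752189, minus strand) encodes 334 residues and has transcripts with 1 or 2 exons. Every copy of Hsp70 had counts that were not whole in at least 7 of the 9 libraries, since the counting split read pairs with several mapping places among them. Hsp83 had such counts in 6 libraries, and Hsp68 and DnaJ-1 in 0.

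Levels are given as CPM, counts relative to the library's size, scaled with TMM, a factor for each library computed from the bulk of its genes. Per kilobase of exon, Hsp83 was the most abundant of the 9, with a mean over the libraries of 517.1 CPM per kb, rank 159 of the 12883 genes tested. Hsp68 averaged 83.2 and DnaJ-1 63.3 CPM per kb. The single Hsp70 copies were lower by more than an order of magnitude, from 4.34 CPM per kb for Hsp70Ab and 4.11 for Hsp70Aa down to 2.39 for Hsp70Bb, 1.52 for Hsp70Bbb, 1.01 for Hsp70Bc and 0.817 for Hsp70Ba. Summed, and per kb of their mean length, the copies averaged 14.2 CPM per kb. The highest sum was 33.9 in high replicate 2, where DnaJ-1 had 60.3. The order of the 9 single genes was the same in each density for the first 7 places. Hsp83 lay above Hsp68, and DnaJ-1 above Hsp70Ab, without overlap of the libraries at each density. Hsp68 and DnaJ-1 were apart at low density and overlapped at medium and high density. Hsp70Ab and Hsp70Aa overlapped at each density, as did Hsp70Aa and Hsp70Bb. Hsp70Ba changed place: at low density it stood between Hsp70Bbb and Hsp70Bc, overlapping both, and at medium and high density it was last, overlapping Hsp70Bc.

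**Figure D1:**
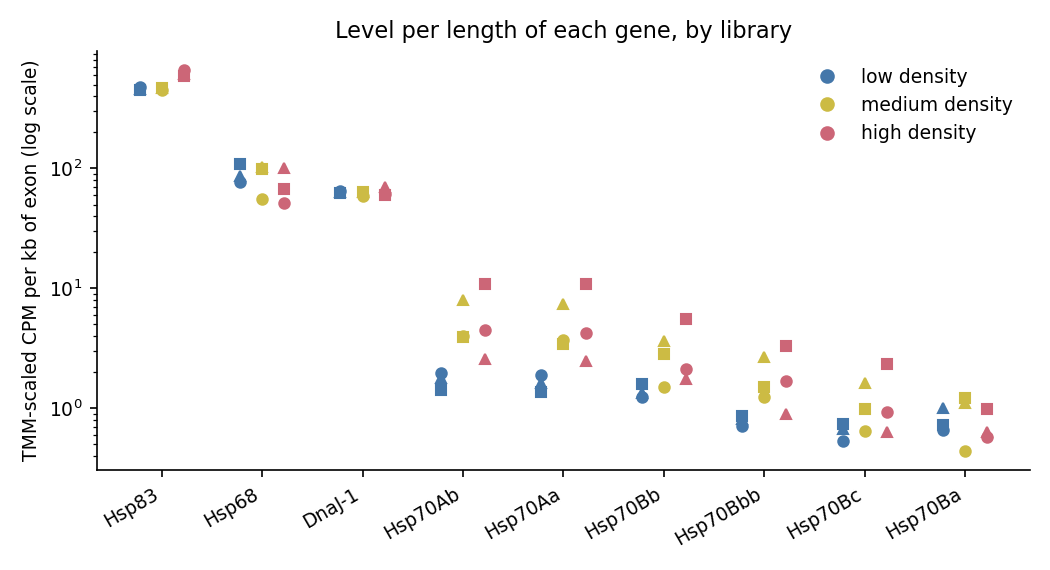
TMM-scaled CPM per kb of exon (log axis) of each gene, in order of the mean over libraries; each point is 1 library, coloured by density, with circles, squares and triangles for replicates 1, 2 and 3. Hsp83 lies highest, Hsp68 and DnaJ-1 lie between 51.6 and 109.1, and the Hsp70 copies lie between 0.439 and 10.9.

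Hsp70 transcripts were scarce and even at low density, and higher and uneven at medium and high density, although no difference passed the edgeR test. The summed Hsp70 level was 16.6, 15.9 and 17.0 CPM in low replicates 1 to 3. At medium density it was 27.3, 33.0 and 57.9 CPM. At high density it was 33.3, 80.1 and 21.3 CPM. All 6 medium and high libraries lay above the 3 low libraries, and the medium and high libraries overlapped. As counts, the sums ranged from 377.6 to 381.7 in the low libraries, from 567.7 to 1159 in the medium libraries and from 602.3 to 1538 in the high libraries. The library with most Hsp70 was high replicate 2, the shallowest of the 9.

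Summed Hsp70 averaged 44.9 ± 31.0 CPM in the 3 high libraries and 16.5 ± 0.593 CPM in the 3 low ones (mean ± SD), a fitted 2.71-fold difference (log2 fold change 1.44, SE 0.47, 95% interval 0.37 to 2.51). Its edgeR quasi-likelihood adjusted p was 0.075. Medium averaged 39.4 ± 16.3 CPM and was 2.38-fold above low (log2 fold change 1.25, SE 0.47, 95% interval 0.18 to 2.32, edgeR adjusted p 0.15). High was 1.14-fold above medium (log2 fold change 0.19, SE 0.46, 95% interval -0.86 to 1.23, edgeR adjusted p 0.777). The joint edgeR test of any difference among the densities gave an adjusted p of 0.0806, where 33.6% of the genes tested passed. For scale, 1.72% of the genes tested had a larger fitted log2 fold change in high against low, 0.722% in medium against low and 36.4% in high against medium.

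The call depended on the tool and on single libraries, and the size on single libraries. DESeq2 called the high against low difference (log2 fold change 1.47, adjusted p 0.0116), limma voom did not (1.165, adjusted p 0.166), and edgeR did without high replicate 3 (1.77, adjusted p 0.0126). Without high replicate 2, edgeR gave a log2 fold change of 0.72 (adjusted p 0.225), and high against medium turned to -0.53. Over all alternatives the adjusted p of high against low ranged from 0.0116 to 0.225 and that of medium against low from 0.0542 to 0.925. Medium against low was 0.87 (edgeR adjusted p 0.429) without medium replicate 3. The main fit takes 1 estimate of the spread from all 9 libraries, so the uneven high pools enter this comparison too. Fitted on the low and medium libraries alone, it was 1.27 (SE 0.271, edgeR adjusted p 0.0594).

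The spread of summed Hsp70 also differed between densities. Its coefficient of variation was 3.59% at low density, where counting error alone gives 5.13%. It was 41.4% at medium and 69.2% at high density, where counting error gives 3.49% and 3.2%. Among the 6207 other tested genes averaging 10 to 100 CPM, the median coefficient of variation was 6.9%, 7.5% and 11.6% at low, medium and high density. At low density 79.2% of those genes varied more than Hsp70, at medium density 7.2%, and at high density 1.13%. These values describe 3 pools per density and were not tested.

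**Figure D2:**
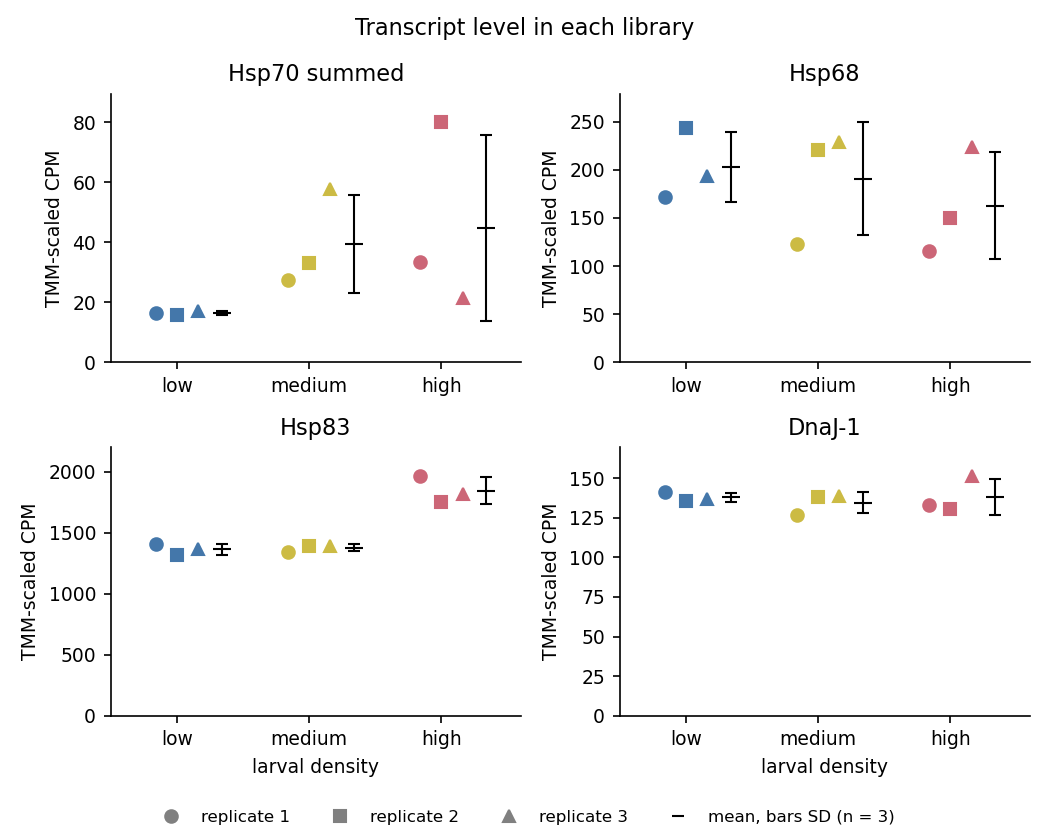
TMM-scaled CPM in each library for summed Hsp70, Hsp68, Hsp83 and DnaJ-1, with axes that start at 0; symbols are the replicates and bars are the mean and SD of 3 libraries. Summed Hsp70 lies between 15.9 and 17.0 CPM at low density and between 21.3 and 80.1 CPM in the medium and high libraries. Hsp83 is higher at high density alone, and Hsp68 and DnaJ-1 overlap between densities.

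Of the 9 genes, the A copies had the largest fitted differences from low density, in both high and medium. Hsp70Aa measured 4.51, 3.24 and 3.88 CPM in the low libraries, 8.83, 8.18 and 17.6 CPM in the medium ones, then 10.2, 25.7 and 5.95 CPM in the high ones. Each medium and each high library was above each low library. Hsp70Ab had like values, with 3.39 to 4.69 CPM at low, 9.39 to 19.0 at medium and 6.15 to 25.8 at high density. The fitted log2 fold changes of high against low were 1.84 for Hsp70Aa (SE 0.54, edgeR adjusted p 0.0531) and 1.78 for Hsp70Ab (SE 0.52, edgeR adjusted p 0.0538). Both lie just outside the threshold of 0.05. Without high replicate 2 they were 1.05 and 1.02, and without high replicate 3 they were 2.20 and 2.14, past the threshold.

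Against low density the B copies had smaller fitted differences than the A copies. Between high and medium, where edgeR called no copy, the order was different: the log2 fold changes were 0.27 for Hsp70Aa, 0.16 for Hsp70Ab, 0.25 for Hsp70Bc and -0.335 for Hsp70Ba. Hsp70Bb measured 2.91 to 3.74 CPM at low, 3.56 to 8.61 at medium and 4.08 to 12.9 at high density, and Hsp70Bbb measured 1.67 to 2.03, 2.91 to 6.29 and 2.11 to 7.75 CPM. For both, the high libraries lay above the low ones; the medium libraries did so for Hsp70Bbb, and overlapped with low for Hsp70Bb. Hsp70Bc, at 1.28 to 1.77, 1.54 to 3.84 and 1.5 to 5.58 CPM, overlapped between all densities. Their fitted log2 fold changes of high against low were 1.16, 1.29 and 0.995 (SE 0.47, 0.47 and 0.52), with edgeR adjusted p of 0.137, 0.106 and 0.241. Hsp70Ba measured 1.53 to 2.33 CPM at low, 1.02 to 2.84 at medium and 1.34 to 2.30 at high density, a log2 fold change of -0.13 (SE 0.40, 95% interval -1.05 to 0.785, edgeR adjusted p 0.843), whose sign turns with library totals alone, without low replicate 3 and without high replicate 1. It rests on 21.2 to 63.6 counts per library.

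Summed over the A pair, the log2 fold change of high against low was 1.81 (SE 0.52) with an edgeR adjusted p of 0.0505, and summed over the 4 B copies it was 0.97 (SE 0.44) with an edgeR adjusted p of 0.181. The A pair held 55.5%, 41.8% and 47.5% of all Hsp70 counts in the low libraries, 66.9%, 53.3% and 63.2% in the medium and 62.4%, 64.3% and 56.9% in the high libraries. The high libraries all had a larger A share than the low ones, and the medium libraries overlapped with low. How fractional counting divides reads among the copies bears on these shares, and the difference between the A and B copies was not tested.

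Of the 9 genes, 5 had high libraries entirely above the low ones, namely Hsp83 and 4 Hsp70 copies, where 13.4% of all genes tested did. Between medium and low there were 3, all Hsp70 copies (Hsp70Aa, Hsp70Ab and Hsp70Bbb), against 18.2% of all genes. The copies share reads, so these are not separate observations. No copy passed the edgeR threshold in any of the 3 comparisons. At an unadjusted edgeR p under 0.05 there were 4 copies in high against low, 3 in medium against low and 0 in high against medium, beside 30.1%, 25% and 49.3% of all genes. DESeq2 called 3 copies in high against low (Hsp70Aa, Hsp70Ab and Hsp70Bbb), Hsp70Aa and Hsp70Ab in medium against low and 0 in high against medium, beside 22.4%, 12.2% and 44.8% of all genes. With limma voom 0 copies were called in each, beside 15.1%, 0.0% and 39.4% of all genes.

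**Figure D3:**
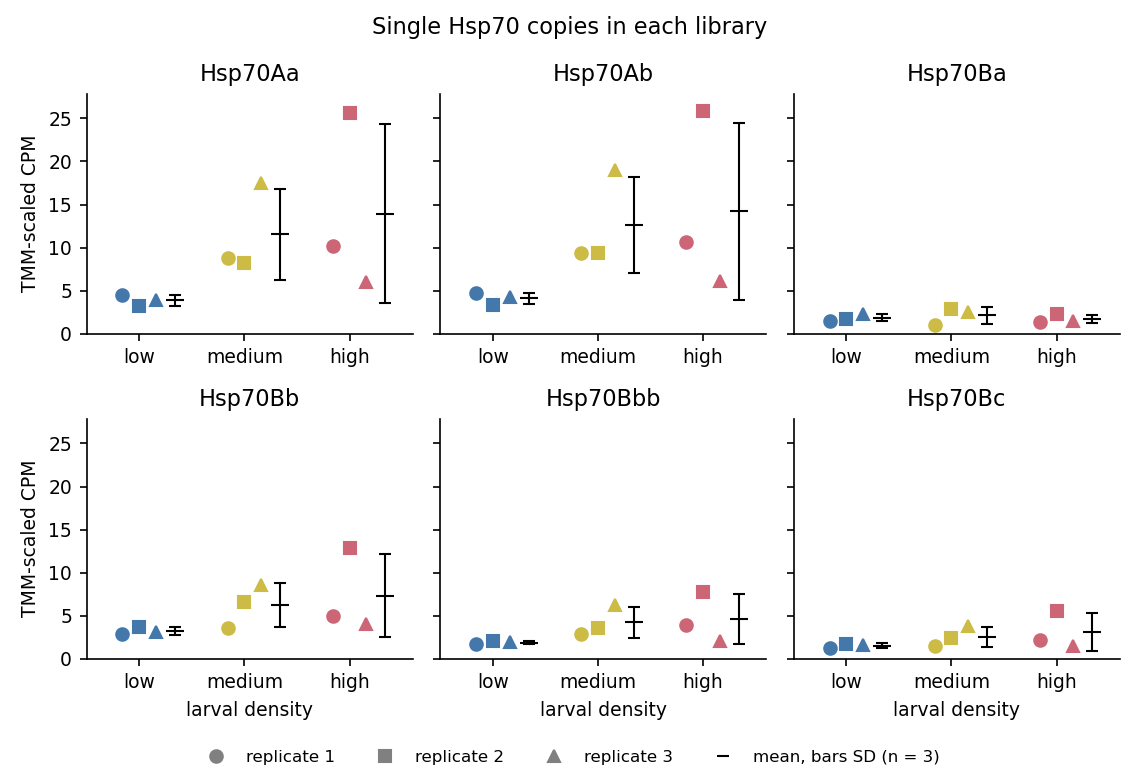
TMM-scaled CPM of each Hsp70 copy in each library, on 1 common axis from 0; symbols are the replicates and bars are the mean and SD of 3 libraries. High replicate 2 and medium replicate 3 are highest for Hsp70Aa and Hsp70Ab, at 25.7 and 25.8 CPM and at 17.6 and 19.0 CPM, and Hsp70Ba stays between 1.02 and 2.84 CPM.

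Hsp68, the inducible relative of Hsp70 with a single gene, did not follow it. It measured 171.9, 243.3 and 194.0 CPM in the low libraries, 123.3, 220.6 and 228.4 CPM in the medium ones and 115.2, 149.5 and 223.9 CPM in the high ones. The densities overlapped, and high replicate 3, the high library with least Hsp70, had the most Hsp68. Averages were 162.8 ± 55.6 CPM in the high and 203.1 ± 36.5 CPM in the low libraries (mean ± SD of 3), with -0.32 as the fitted log2 fold change (SE 0.295, 95% interval -0.99 to 0.35, edgeR adjusted p 0.484). Medium against low gave -0.09 (SE 0.294, 95% interval -0.76 to 0.58, edgeR adjusted p 0.878), whose sign turns without low replicate 2, without medium replicate 1 and with the roX covariate. High against medium gave -0.23 (SE 0.294, 95% interval -0.90 to 0.44, edgeR adjusted p 0.573), whose sign turns with library totals alone. A rise of Hsp68 at high density as large as the fitted 2.71-fold of summed Hsp70 lies outside its interval, whose upper end is 1.28-fold. Summed Hsp70 has a wide interval of its own, from 1.29-fold to 5.7-fold, and the difference between Hsp68 and Hsp70 was not tested.

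Hsp83 rose at high density. It measured 1413, 1323 and 1365 CPM at low density and 1345, 1394 and 1394 CPM at medium density. At high density it measured 1968, 1751 and 1822 CPM. The 3 high libraries lay above the other 6, and low and medium overlapped. Means were 1847 ± 111 CPM at high, 1378 ± 27.9 at medium and 1367 ± 44.9 at low density (SD, n = 3 each). High exceeded low 1.35-fold (log2 fold change 0.43, SE 0.08, 95% interval 0.25 to 0.62, edgeR adjusted p 0.0104) and medium 1.34-fold (log2 fold change 0.42, SE 0.08, 95% interval 0.24 to 0.61, edgeR adjusted p 0.00802). Medium against low gave 0.01 (SE 0.08, 95% interval -0.17 to 0.19, edgeR adjusted p 0.948), whose sign turns with upper-quartile factors, library totals alone, the roX covariate and without low replicate 2. The joint edgeR test called Hsp83 (adjusted p 0.0116).

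Hsp83 was the only one of the 9 called in high against low and in high against medium, where 15.2% and 39.6% of all genes tested were called, 4.18% and 21.3% as higher. Its high libraries lay above the medium ones, as for 24.9% of all genes. In medium against low edgeR called 0 of the 9 and 0.0% of all genes, with 3 of the 9 and 25% of all genes at an unadjusted p under 0.05. DESeq2 called 2 of the 9 and limma voom 0, beside 12.2% and 0.0% of all genes. The call of high against low was lost when only the 2 groups compared were fitted (0.44, adjusted p 0.0784), without low replicate 2 (0.41, adjusted p 0.0503) and without low replicate 3 (0.42, adjusted p 0.0683). That of high against medium was lost with the roX covariate, a measure of the share of males (0.435, adjusted p 0.0544). Adjusted p ranged from 1.56e-13 to 0.0784 and from 2.05e-12 to 0.0544 over the alternatives.

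DnaJ-1 differed little. It measured 135.8 to 141.2 CPM at low, 126.7 to 138.6 at medium and 130.2 to 151.4 at high density, and the densities overlapped. The log2 fold changes were 0.005 for high against low (SE 0.075, 95% interval -0.17 to 0.18, edgeR adjusted p 0.969), -0.035 for medium against low (SE 0.075, 95% interval -0.21 to 0.14, edgeR adjusted p 0.804) and 0.04 for high against medium (SE 0.075, 95% interval -0.13 to 0.21, edgeR adjusted p 0.702). The intervals reach from 0.866-fold to 1.16-fold. Each of these small values turned sign under at least 2 alternatives, and with library totals alone high against medium was called (0.29, adjusted p 0.0285), a scaling that lifted the median of all genes to 0.255 from 0.007.

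**Figure D4:**
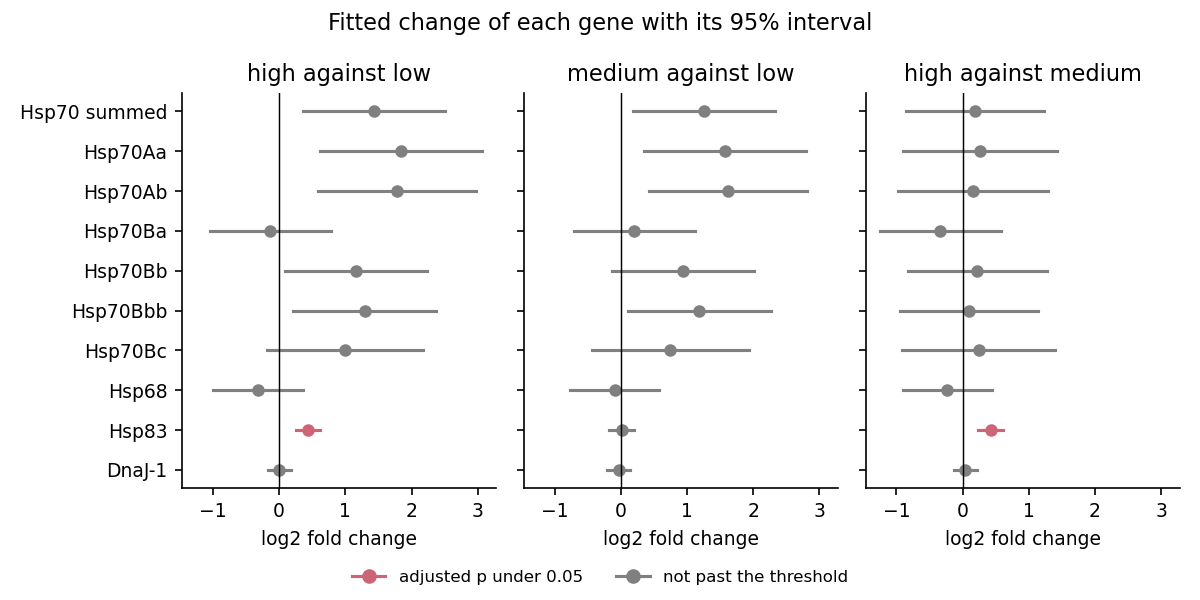
Log2 fold change (horizontal axis) of summed Hsp70 and of each gene in the 3 comparisons, with 95% intervals from the edgeR fit of all 9 libraries; the vertical line marks no change. Hsp83 is past the threshold in high against low and high against medium, and the intervals of summed Hsp70 and its copies are wider than those of Hsp83 and DnaJ-1.

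Other features of the larvae moved with density too. The mitochondrial ribosomal RNA lrRNA took 6.27% to 8.55% of the counts at low, 7.38% to 10.2% at medium and 10.1% to 11.4% at high density. The 7 muscle markers summed to 2654 to 3833 CPM at low, 3082 to 5397 at medium and 3989 to 10800 at high density, and 3 of them were called higher at high than at low density, where 4.18% of all genes were called higher and 11% lower. The 10 salivary gland timing markers summed to 44800 to 51250, 44390 to 53510 and 24910 to 41600 CPM, with 4 called higher and 3 lower at high than at low density. The 6 fat body markers summed to 55880 to 59850, 56030 to 88720 and 39320 to 62090 CPM, with 0 called higher and 2 lower. Among the markers of each list, 0 were at zero in every library. The fat body sums overlapped between all densities. Whether lrRNA or these marker levels have a part in the levels of Hsp83 and Hsp70 was not tested; in whole larvae, more cells of a type and more RNA per cell cannot be told apart.

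The rest of the chaperone network was read from 6 lists of 95 genes, of which 91 were tested. In high against low, 3 were called higher and 7 lower, or 11% of those tested against 15.2% of all genes, with a median log2 fold change of 0.03 against 0.06. In medium against low edgeR called 0 of 91, with 25 of 91 at an unadjusted p under 0.05, where 25% of all genes were. DESeq2 called 13 of 91 and limma voom 0, beside 12.2% and 0.0% of all genes. In high against medium 24 were called higher and 10 lower, or 37.4% against 39.6% of all genes. The shares called by edgeR are near or below the background. Leaving out 1 library moved the first count to 1 (low replicate 1), 3 (low replicate 2 or high replicate 2), 4 (low replicate 3) or 18 (high replicate 3), the second to 9 (medium replicate 2) and the third to 19 (medium replicate 1 or high replicate 2).

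Among the constitutive Hsc70 genes and nucleotide exchange factors, 0 of 10 were called in high against low, where 15.2% of all genes were. The most abundant, Hsc70-4, the main cytosolic Hsc70, measured 2266 ± 56.2, 2355 ± 104 and 2296 ± 153.9 CPM at low, medium and high density (edgeR adjusted p 0.9 for high against low). Of the J-domain proteins, 1 rose and 2 fell among 30, where 4.18% of all genes were called higher and 11% lower. CG10565, a relative of yeast zuotin, rose by a log2 value of 0.23 (SE 0.05, edgeR adjusted p 0.0234). The others, DnaJ-H and shv, had log2 fold changes of -0.27 and -0.26, with edgeR adjusted p of 0.0498 and 0.0294. Droj2, the most abundant of the list, had a log2 fold change of 0.075 (edgeR adjusted p 0.504).

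Of the 16 Hsp90 partners and relatives, 1 was called in high against low, where 15.2% of all genes were. CG1416, which matches Aha1, the activator of the Hsp90 ATPase, measured 85.2 ± 1.25 CPM at low, 89.1 ± 0.934 at medium and 99.8 ± 7.36 at high density. It rose by 0.23 (SE 0.06, edgeR adjusted p 0.0464) in the same comparison as Hsp83. Unlike Hsp83, it was not called in high against medium (0.16, edgeR adjusted p 0.0733), and its call in high against low was lost with the roX covariate. Gp93, the Hsp90 of the endoplasmic reticulum and the most abundant of the list, was at 0.10 (edgeR adjusted p 0.435). The median of the list was -0.01, against 0.06 over all genes.

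Of the 8 small heat shock proteins tested, which hold unfolded proteins for the Hsp70 system, 4 fell, 0 rose and 4 were not called in high against low, where 11% of all genes were called lower. Among those not called, Hsp26 (log2 fold change -1.33, edgeR adjusted p 0.0724) and Hsp67Ba (-0.39, edgeR adjusted p 0.0876) had the same sign. The opposite sign was seen for l(2)efl (log2 fold change 0.69, edgeR adjusted p 0.113) and CG7409 (0.03, edgeR adjusted p 0.946). Hsp23, the most abundant, had a low mean of 4531 CPM, a high mean of 1601 CPM and an edgeR adjusted p of 0.0206. The others were Hsp27 (log2 fold change -1.29), Hsp67Bc (-1.57) and CG14207 (-0.38), with edgeR adjusted p of 0.0158, 0.0142 and 0.0276. In high against medium 5 fell, the same 4 and Hsp67Ba, where 18.3% of all genes were called lower. Without low replicate 1, only 1 gene of all 6 lists was called in high against low. At most 1 of the 4 falls therefore keeps its call without that library.

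Of the 7 regulators, lncRNA:Hsromega, the non-coding RNA of a heat-induced locus, averaged 251.3 ± 15.2 CPM in low libraries, 239.4 ± 16.2 in medium and 169.0 ± 22.3 in high ones; it fell in high against low (log2 -0.57, SE 0.105, edgeR adjusted p 0.0102) and in high against medium (log2 -0.50, edgeR adjusted p 0.0101). Trl, which codes for the GAGA factor that keeps Hsp70 promoters open, measured 13.3 ± 0.908 CPM at low, 16.5 ± 0.697 at medium and 18.3 ± 1.73 at high density, and rose by 0.45 in high against low (SE 0.10, edgeR adjusted p 0.0214). Hsf itself was at 60.6, 64.1 and 61.3 CPM (log2 fold change 0.02 in high against low, SE 0.06, edgeR adjusted p 0.862). Of the 20 chaperonin and prefoldin genes, 0 were called in high against low, where 15.2% of all genes were. The most abundant, CCT2, was at 0.04 (edgeR adjusted p 0.694).

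**Figure D5:**
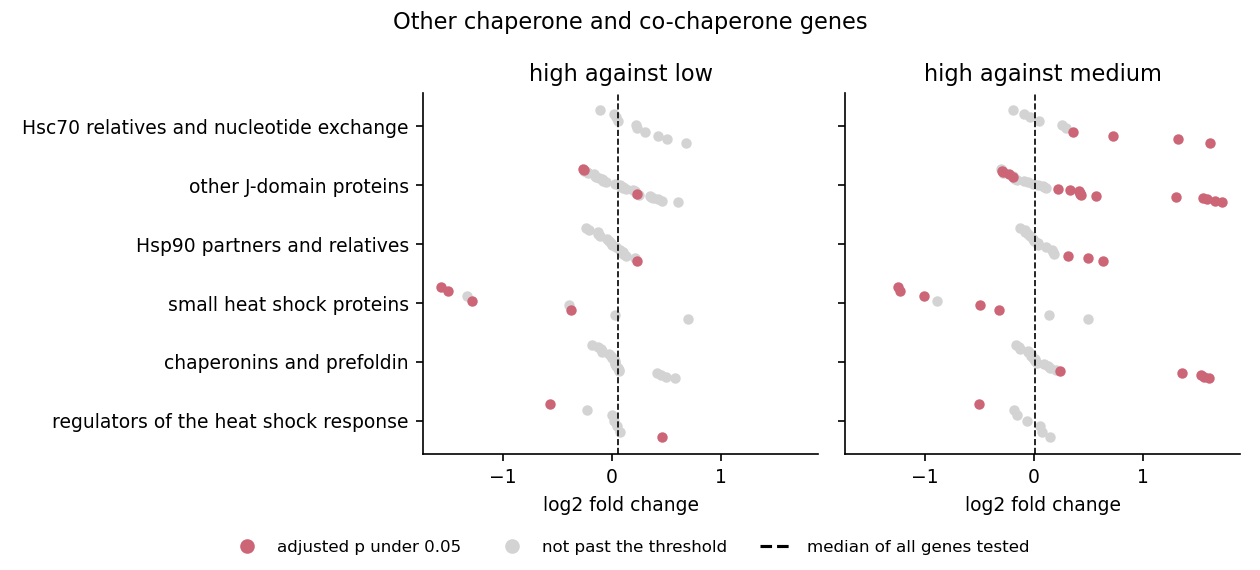
Log2 fold change (horizontal axis) of each tested gene of the 6 lists in high against low and high against medium; red points are past an adjusted p of 0.05 and the dashed line is the median of all genes tested. In high against low most genes lie near the line. The 4 called small heat shock proteins lie left of it, and l(2)efl, not called, lies to the right at 0.69. In high against medium 11 genes lie at the right, past 2-fold.

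In high against medium, 11 of the 91 list genes tested rose more than 2-fold: Hsc70-1, Hsc70-2, CG12020, CG2887, CG30156, CG7387, CG8476, CG9920, Hsp60B, Hsp60C and Hsp60D. The share of all genes past this cut was not counted, so whether 11 is many for this comparison is not known. Hsc70-2 measured 52.0 ± 7.40 CPM at low, 28.0 ± 10.7 at medium and 69.7 ± 23.7 at high density, and Hsp60B, a chaperonin needed in the male germ line, 62.5 ± 8.73, 30.5 ± 13.7 and 93.0 ± 35.8 CPM. Their log2 fold changes were 1.32 and 1.61 (edgeR adjusted p 0.0144 and 0.0128). Markers of the testis moved with these genes: the 16 summed to 528.3 to 678.2 CPM at low, 192.6 to 408.9 at medium and 506.9 to 1081 at high density, and 16 of 16 rose in high against medium, where 21.3% of all genes were called higher. The male-specific roX1 and roX2 summed to 345.1 to 791.5, 136.7 to 422.5 and 361.2 to 611.5 CPM. The ranges overlapped between all densities, and 0 of the 2 were called in each comparison. With roX as a covariate the count was 5 list genes, and 4 of these (CG10565, CG12020, CG30156 and CG5504) had a call in both fits. Over all genes the covariate took the calls from 5102 to 1073, or from 39.6% to 8.33% of those tested. In high against low the calls went from 1961 to 1968. The covariate was partly tied to density, which widens the errors of the fit. For Hsp83 in high against medium, the log2 fold change went from 0.423 (SE 0.08) to 0.435 (SE 0.113). A fall in calls therefore does not measure the part of male tissue, which was not tested. Among the other calls of this comparison were Roe1 (log2 fold change 0.72), Trap1 (0.63), CG5504 (0.56), spag (0.49), CG10565 (0.425), Hsc70-5 (0.355), CHORD (0.31), Pfdn5 (0.23), Droj2 (0.22) and shv (-0.19). Of the 30 J-domain genes tested, 12 rose and 4 fell, shv among them, where 21.3% of all genes were called higher and 18.3% lower.

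Over the 9 libraries, the genes whose log2 CPM was most like that of summed Hsp70, among 9579 with a mean of at least 5 CPM, were Cpr67B (Pearson r 0.916), scaf (0.912), Pits (0.908), Reg-5 (0.905) and CG31038 (0.9). For Hsp83 they were Cap-G (0.98), CG4896 (0.978), lncRNA:cherub (0.973), ACC (0.969) and smg (0.965). For Hsp68 they were CG7888 (0.869), CG8786 (0.854), l(3)mbt (0.846), CG6758 (0.844) and Pka-C3 (0.837), and for DnaJ-1 they were Map205 (0.874), salm (0.837), ash1 (0.836), MED1 (0.835) and CycT (0.831). Of these 20, CycT belongs to the list of regulators. Between the 4 themselves, r was 0.649 for Hsp68 and DnaJ-1, 0.347 for summed Hsp70 and Hsp83, and 0.176 for Hsp83 and DnaJ-1. It was negative for summed Hsp70 and Hsp68 (-0.237), summed Hsp70 and DnaJ-1 (-0.355), and Hsp68 and Hsp83 (-0.415). These are descriptions over libraries that share group and scaling.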

How the data were processed

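The authors' deposited table holds expected counts for 9 libraries, not normalized. Per the file headers, read pairs were counted with featureCounts 1.6.2 over exons of the Release 6 RefSeq annotation, by strand, with pairs mapping to several places added as fractions (5.06% of values are not whole). Per the submitters' processing notes, Trim Galore 0.6.4 and HISAT2 2.1.0 were also used. Libraries were prepared with a stranded mRNA kit, per the labels. All count columns were mapped to samples.

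Whole counts had been planned for; the expected counts were rounded and tested with edgeR 4.0.16 (filterByExpr, TMM, quasi-likelihood F-test, all 9 libraries) in R 4.3.3, with Benjamini-Hochberg adjustment over all 12883 genes and a threshold of 0.05. For the sum, the 6 Hsp70 rows were replaced by 1. Intervals are 95%, from the fit. CPM used TMM-scaled totals; log2 CPM used a prior count of 2. Tests were tried on simulated counts. DESeq2 1.42.0 and limma 3.58.1 were alternatives. Counting errors assume whole, independent reads.

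Named were the 9 genes, the most abundant gene of each list and called list genes (up to 6 changes per list, the rest as counts). Like genes, 5 each, were named for summed Hsp70, Hsp68, Hsp83 and DnaJ-1. Hsf, Hsp26, CG7409 and the count of list genes past 2-fold were chosen after values were seen. Members and lists were chosen with earlier results of these data known.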

Additional observations from a re-analysis of the deposited data

How the results depend on the processing

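Values are log2 fold changes, with high against low, medium against low and high against medium written HL, ML and HM. Summed Hsp70 HL kept its direction in 21 alternatives and was called with DESeq2 (1.47) and in 1 of the fits without 1 library, which ran from 0.724 to 1.772. Its HM turned with limma voom (-0.006) and ran from -0.53 to 0.569 without single libraries. Hsp83 HL lost its call with only the 2 groups compared (0.441) and ran from 0.384 to 0.471 without single libraries; its HM lost it with the roX covariate (0.435). Hsp83 ML turned with upper-quartile factors (-0.005), library totals alone (-0.09) and the roX covariate (-0.002), and ran from -0.012 to 0.036 without single libraries. DnaJ-1 HL turned with no filter (-0.011), ML with the roX covariate (0.003), and HM was called with library totals alone (0.293); without single libraries these ran from -0.063 to 0.046, -0.057 to 0.007 and -0.027 to 0.081. Hsp68 ML turned with the roX covariate (0.034) and ran from -0.24 to 0.145, and its HM turned with library totals alone (0.032). With limma voom, HM of Hsp70Aa (-0.011), Hsp70Ab (-0.105) and Hsp70Bbb (-0.084) turned, and with library totals alone HL of Hsp70Ba (0.026) turned. Without single libraries HM ran from -0.52 to 0.7 for Hsp70Aa, -0.593 to 0.581 for Hsp70Ab, -0.491 to 0.487 for Hsp70Bbb, -0.457 to 0.514 for Hsp70Bb and -0.476 to 0.641 for Hsp70Bc; Hsp70Ba ran from -0.391 to 0.056 in HL and from -0.067 to 0.54 in ML. The cause was not tested for any of these.

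The number of genes called in HL was 1961, 978 with only the 2 groups compared and 807 to 2755 without single libraries. In ML it was 0, against 1575 with DESeq2, 7 with only the 2 groups compared and 0 to 1094 without single libraries. In HM it was 5102, 1073 with the roX covariate, 3095 with only the 2 groups compared and 2675 to 5447 without single libraries. Rises made up 539 of the HL calls with TMM, 798 of 1916 with upper-quartile factors and 1656 of 2544 with library totals alone, and 2749, 3304 of 4971 and 4958 of 5904 of the HM calls; over all genes, the median log2 change was 0.058, 0.141 and 0.206 in HL and 0.007, 0.106 and 0.255 in HM. In the 6 lists, HL gave 10, 17 with DESeq2, 18 with library totals alone, 4 with only the 2 groups compared and 1 to 18 without single libraries; ML gave 0, 13 with DESeq2 and 0 to 9 without single libraries; HM gave 34, 61 with library totals alone, 5 with the roX covariate, 21 with only the 2 groups compared and 19 to 35 without single libraries. Correlations of same-numbered libraries' deviations ran from -0.339 to 0.279, so the libraries share a number and no pairing was taken from it. With replicate number as a block, summed Hsp70 gave 1.341 and Hsp83 0.434 in HL, the 6 lists 4 calls in HL, and all genes 1405, 0 and 4643 calls in HL, ML and HM.

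Counting error was 5.76% for Hsp70Aa at high density, where the coefficient of variation between pools was 74.5%, and 14.8% to 16.0% for Hsp70Ba, the scarcest copy, against 22.7% to 45.8% between pools.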

Other observations

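The Hsp70B cluster holds 3 further genes that lie between its copies. The non-coding lncRNA:alphagamma-element:CR32865 had 1 to 8.13 counts at low, 2.67 to 4.5 at medium and 3 to 8 at high density. CR46154 and CR46155, in the gaps of the tandem copies, had at most 3 counts in a library. None of the 3 had enough counts to be tested.

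The co-chaperone stv, the fly BAG3, and the small heat shock gene l(2)efl, both chosen after their values were seen, were higher in mean at high density without passing the threshold: stv measured 40.0, 46.4 and 56.8 CPM at low, medium and high density (edgeR adjusted p 0.0805 for high against low), and l(2)efl 738.2, 846.2 and 1194 CPM (edgeR adjusted p 0.113).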
